A study of Mus musculus with 37 samples.

Results

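TRBV1 is a variable segment of the mouse T cell receptor beta (TRB) locus. All rows whose best variable segment was TRBV1 were taken from the clonotype tables of 37 mouse lymph node libraries. They were 268636 of 1704980 rows (15.8%) and held 7199546 of 47131913 reads. Merging rows with the same joining segment and the same amino acid CDR3 left 141474 TRBV1 clonotypes of 1002058 in all.

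A beta chain gene is assembled in the thymus when a variable segment (TRBV) is joined to a diversity segment (TRBD) and a joining segment (TRBJ). Nucleases trim the segment ends, opened hairpins can leave short palindromic bases, and terminal transferase adds bases that no segment encodes. The third complementarity-determining region (CDR3) spans these joints and is the part of the chain that meets the peptide. TRBV1 is one of the few beta segments known from mouse natural killer T cells, and conventional T cells use it as well. In the RefSeq gene table for GRCm38.p6, used for names and neighbours only, Trbv1 lies on chromosome 6 between Moxd2 and Prss58, with 6 genes between it and Trbv2. The files name no genome build, so no coordinates are given.

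The libraries were made from genomic DNA, so reads count rearranged genes, never transcripts. Of the libraries, 32 came from MMTV-PyMT mice, females per the treatment protocol, in which a mammary promoter drives a viral oncogene and tumors form, and 5 from FVBN mice labelled WTNT. The labels do not say whether each library is a separate mouse, so the p-values measure only the spread between these libraries. The CSF1R inhibitor PLX3397 was fed in chow (40 mg/kg per day, starting at 80 days of age). Chemotherapy labelled PTX was injected at 10 mg/kg, starting at 85 days and repeated at intervals of 5 days. The PD-1 antibody (aPD-1) or a rat isotype antibody started at 87 days with a dose of 1 mg, and later doses were 0.5 mg. The triple combination of PLX3397, PTX and aPD-1 carries a label ending in R (6 libraries at d105, 5 at d95) or NR (4 and 3). PLX3397 with PTX, called PLX+PTX, had 6 and 3 libraries, PTX alone had 2 and 3, and WTNT had 5, all at d105. No dose of any drug is listed for WTNT, and every MMTV-PyMT group received PTX. The labels do not say what R, NR and WTNT stand for, and DNA of 1 locus holds no marker that could test the lymph node label. Libraries held 1090573 to 2831566 reads at d105 and 90648 to 917752 at d95, so day and depth cannot be told apart. The d95 libraries also form a block of library numbers of their own. Age and time under treatment go with the day as well. None of these can be told apart in a difference between days. Any 2 libraries shared between 1.34% and 8.71% of the TRBV1 nucleotide clonotypes of the smaller one, so none looked like a second copy of another.

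The TRBV1 part of the CDR3 can be read off the deposited sequences. The first line below is the end of TRBV1 as it stands in clonotypes with no V base trimmed and no palindromic V base, where 24634 of 26194 carried these letters. The next lines are the most widely found nucleotide form of 7 clonotypes present in 36 libraries, chosen because they show the joints of receptors that most libraries share. The last 3 are the TRBV1 clonotypes with the most reads in 3 of the groups. Capitals mark bases outside the V, D and J calls of the files.
V end: tgcacctgcagtgcaga
TRBJ2-7, 14 residues: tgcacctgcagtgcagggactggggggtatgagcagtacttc
TRBJ2-7 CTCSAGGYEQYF: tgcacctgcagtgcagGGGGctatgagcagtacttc
TRBJ1-1 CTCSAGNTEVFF: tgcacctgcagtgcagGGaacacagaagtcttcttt
TRBJ2-5 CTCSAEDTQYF: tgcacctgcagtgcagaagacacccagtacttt
TRBJ2-7 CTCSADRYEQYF: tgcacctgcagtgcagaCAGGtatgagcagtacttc
TRBJ2-1, 15 residues: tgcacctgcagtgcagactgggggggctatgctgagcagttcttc
TRBJ2-1, 15 residues, another clonotype: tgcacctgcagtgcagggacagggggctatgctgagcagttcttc
d105 NR replicate 2, TRBJ2-4: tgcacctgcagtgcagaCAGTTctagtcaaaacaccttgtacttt
d105 PLX+PTX replicate 1, TRBJ2-4: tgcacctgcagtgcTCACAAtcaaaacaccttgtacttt
d95 R replicate 5, TRBJ1-1: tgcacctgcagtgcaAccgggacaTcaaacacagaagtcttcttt

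The segment itself supplies a threonine and a second cysteine after the opening cysteine of the CDR3. Counted once per clonotype, 99.5% ± 0.133 of TRBV1 clonotypes had threonine at residue 2 and 99.2% ± 0.136 had cysteine at residue 3 (SD, n = 37 libraries). In other TRBV clonotypes these were 0.153% ± 0.0430 and 0.0692% ± 0.0211. Alanine followed at residue 5 in 73.9% ± 1.03 of TRBV1 clonotypes and in 1.22% ± 0.120 of the others. These residues come with the segment that chose the rows and are a description.

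TRBV1 ends were trimmed less than those of other segments. The mean number of V bases lost was 2.26 ± 0.0545 in TRBV1 and 3.001 ± 0.0279 in other TRBV, and it was lower in 37 of 37 libraries. Palindromic V bases were present in 15.2% ± 0.722 of TRBV1 clonotypes and 8.49% ± 0.277 of others, higher in 37 of 37. The 2 commonest states of the TRBV1 end were the loss of 3 bases, in 22.0% ± 0.587 of clonotypes, and of 1 base, in 18.7% ± 0.929, while the loss of 2 bases was seen in 8.15% ± 0.306. Fewer bases lay between V and D in TRBV1, with 1.19 ± 0.0316 against 1.49 ± 0.0321. On the other side of D the order was turned, with 1.80 ± 0.0744 bases between D and J in TRBV1 and 1.68 ± 0.0521 in others, higher in 36 of 37 libraries. The J end lost 3.54 ± 0.120 bases in TRBV1 and 3.21 ± 0.0585 in others. These junction measures were not tested beyond the counts of libraries. They rest on the caller's borders, and 9.77% ± 1.21 of the D calls in TRBV1 clonotypes with a TRBJ1 partner named TRBD2, a segment that lies downstream of the TRBJ1 cluster.

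Residue 6, the first position after the V part in many clonotypes, was aspartate in 23.1% ± 0.868 of TRBV1 clonotypes and in 15.4% ± 0.387 of others, higher in 37 of 37 libraries. The last bases of the untrimmed end, read on into the next codon, start an aspartate or glutamate codon. In the inner part of the CDR3, aspartate made up 8.28% ± 0.321 of residues in TRBV1 and 6.77% ± 0.118 in others. Valine was also higher, at 2.89% ± 0.152 against 2.30% ± 0.0459. Tryptophan was lower in TRBV1, at 2.47% ± 0.150 against 3.15% ± 0.0947, in all 37 libraries.

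TRBV1 CDR3s were longer than those of other segments. Weighted by the authors' normalised counts, the mean length was 13.99 ± 0.0757 residues in TRBV1 and 13.75 ± 0.0446 in other TRBV (SD, n = 37), a difference of 0.237 that held in 37 of 37 libraries (sign-flip permutation test, 2-sided, adjusted p 1.25e-05, set by the smallest p the 100000 resamples can give). Counted once, the means were 14.16 ± 0.0514 and 14.02 ± 0.0558, and at the same TRBJ makeup the difference was 0.113 ± 0.0309. Lengths of 15 and 16 residues were more frequent in TRBV1 in 37 of 37 libraries, at 25.8% ± 0.929 against 23.9% ± 0.681 and 10.96% ± 0.703 against 9.15% ± 0.662. Lengths of 13 residues were less frequent in all of them, at 17.7% ± 0.790 against 20.8% ± 0.599.

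**Figure D1:**
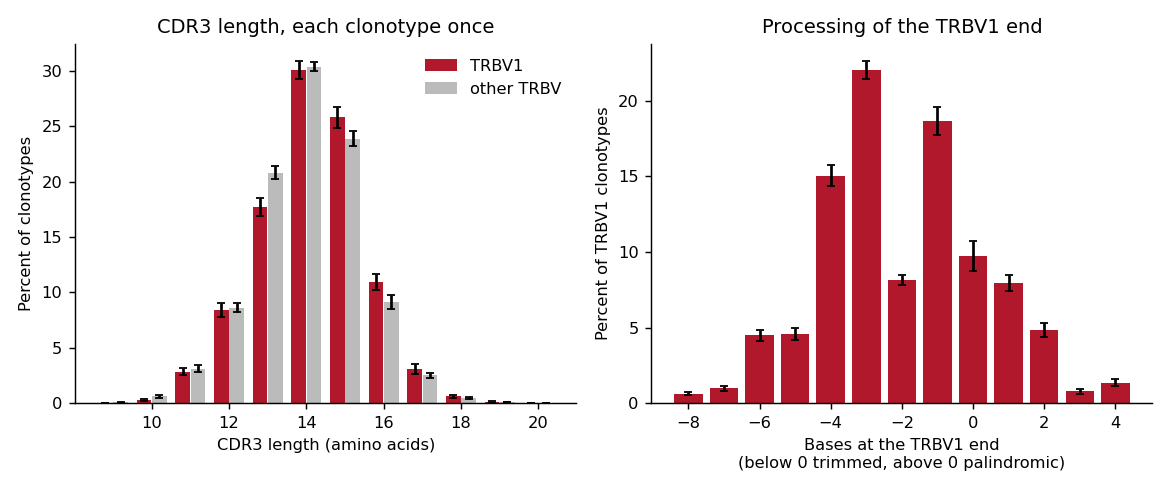
Left, the percent of clonotypes at each CDR3 length in amino acids, for TRBV1 (red) and other TRBV (grey), and right, the percent of TRBV1 clonotypes by the number of bases trimmed (below 0) or palindromic (above 0) at the V end. Bars are means over 37 libraries with each clonotype counted once and lines are SD; TRBV1 has more CDR3s of 15 and 16 residues, and its V end peaks at losses of 3 and 1 bases.

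Hydrophobic residues at both positions 6 and 7 were found in 1.95% ± 0.335 of TRBV1 normalised counts and 1.80% ± 0.154 of others, higher in 29 of 37 libraries (sign-flip permutation test, adjusted p 0.0317). Counted once the difference was 0.0793 percentage points and no longer passed (permutation test, adjusted p 0.147).

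By normalised counts the main partners of TRBV1 were TRBJ2-7, TRBJ2-5 and TRBJ2-3. These took 25.8% ± 7.32, 14.5% ± 1.22 and 11.5% ± 1.64 (SD, n = 37). The lowest by normalised counts were TRBJ1-7, with 0.00261% ± 0.00595, and TRBJ1-5, with 0.183% ± 0.0890. Counted once, TRBJ2-7 (19.4%), TRBJ2-5 (13.6%) and TRBJ2-1 (13.5%) came first, and TRBJ1-5 took 2.90%. In raw reads TRBJ2-1 came first, with 19.7%. TRBJ1-2 was lower and TRBJ1-6 higher in TRBV1 than in other TRBV in 37 of 37 libraries, by normalised counts and counted once alike. TRBJ1-6 took 5.83% ± 2.02 of TRBV1 and 3.25% ± 1.14 of others. TRBJ1-1 took 8.56% ± 1.38 of TRBV1 and 5.32% ± 0.611 of other TRBV, higher in 37 of 37 libraries, and in 35 of 37 when clonotypes were counted once. TRBJ1-2 took 0.878% ± 0.237 of TRBV1 and 2.51% ± 0.485 of others. TRBJ2 partners as a whole took 77.8% ± 3.61 of TRBV1 and 83.9% ± 2.16 of others, lower in 37 of 37 libraries (sign-flip permutation test, adjusted p 1.25e-05). In raw reads this difference was 0.0274 percentage points (permutation test, adjusted p 0.941), and counted once it was -1.93 percentage points (permutation test, adjusted p 1.25e-05).

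**Figure D2:**
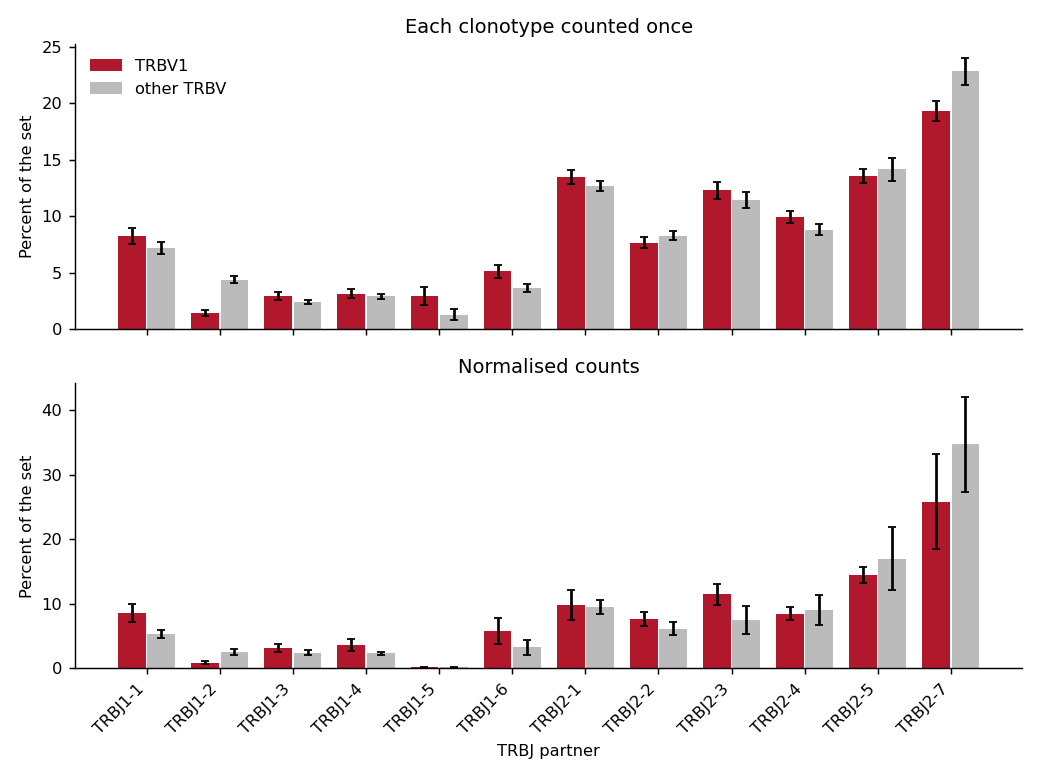
The percent of TRBV1 (red) and of other TRBV (grey) that carries each TRBJ partner, with clonotypes counted once above and by normalised counts below. Bars are means over 37 libraries and lines are SD; TRBJ1-1 is higher and TRBJ1-2 lower in TRBV1 in both panels, and the lines for TRBJ2-7 are long in the lower one.

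The authors' normalised count is the read count times a fixed factor for each TRBV and TRBJ pair. For TRBV1 the factor was 5.51 with TRBJ1-3, 3.96 with TRBJ2-7 and 2.70 with TRBJ2-2, and between 0.362 and 0.967 with the other 10. TRBJ2-7 accounted for 6.50% ± 2.37 of TRBV1 reads, 19.4% ± 0.897 of its clonotypes and 25.8% ± 7.32 of its normalised counts. In other TRBV it accounted for 30.0% ± 2.83 of reads and 22.9% ± 1.21 of clonotypes.

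TRBV1 ranked second among variable segments by reads in all 37 libraries. By clonotypes it ranked 1 or 2, and by normalised counts 6 or 7 at d105 and 2 to 7 at d95. Of the 21 TRBV segments listed, 12 had a mean share of at least 0.1% of normalised counts. TRBV1 held 8.49% ± 2.69 of normalised counts, 16.4% ± 3.30 of reads and 16.1% ± 0.859 of clonotypes (SD, n = 37). The shares of reads had 95% Wilson intervals, which cover counting error only because PCR reads without molecular identifiers are not independent molecules, such as 13.7% (13.7 to 13.8) in d105 NR replicate 2.

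At d105 the share of normalised counts lay in a narrow range in all groups. The R libraries ran from 6.48% through a median of 7.02% to 8.02%. The NR libraries had 6.12%, 6.87%, 7.499% and 7.503%. The PLX+PTX libraries ran from 6.53% through 6.97% to 7.57%, the PTX libraries had 6.32% and 7.45%, and the WTNT libraries had 7.22%, 6.79%, 7.32%, 6.66% and 6.66%. All 5 ranges overlapped.

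At d95 the share was higher and more spread. The R libraries had 7.34%, 8.66%, 9.80%, 8.81% and 11.2%, and the NR libraries 12.4%, 9.76% and 8.34%. The PLX+PTX libraries had 8.45%, 19.3% and 12.2%, and the PTX libraries 10.97%, 12.003% and 13.8%. The value of 19.3%, in PLX+PTX replicate 2, came with 30.6% of reads and 18.5% of clonotypes. The median TRBV1 clonotype of that library had 30 reads and the median other clonotype 14. In the order of group means, d95 PLX+PTX (13.3% ± 5.54) came first, then d95 PTX (12.3% ± 1.43), d95 NR (10.2% ± 2.05) and d95 R (9.17% ± 1.45), followed by d105 R (7.15% ± 0.539), NR (7.00% ± 0.658), PLX+PTX (6.97% ± 0.370), WTNT (6.93% ± 0.319) and PTX (6.88% ± 0.795). Every neighbouring pair in this order had overlapping ranges.

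Shares were compared with limma on log2 of the percent plus 0.01, with Benjamini-Hochberg adjustment over 24 TRBV and TRBJ segments. TRBV1 was put to 7 comparisons within a day, of treatments or of MMTV-PyMT with WTNT, and none passed. In MMTV-PyMT minus WTNT the mouse line, the drugs and the block of library numbers differ together and cannot be told apart. At d105 the log2 differences were 0.03 ± 0.065 (SE) for R minus NR, 0.02 ± 0.052 for aPD-1 added to PLX+PTX, 0.02 ± 0.083 for PLX3397 added to PTX and 0.02 ± 0.051 for MMTV-PyMT minus WTNT, with limma adjusted p from 0.757 to 0.916. At d95 they were -0.14 ± 0.23 for R minus NR, -0.42 ± 0.21 for aPD-1 added to PLX+PTX and 0.04 ± 0.26 for PLX3397 added to PTX, with limma adjusted p of 0.867, 0.199 and 0.975. In each of these 7, limma called 0 of the 24 segments (0.0%).

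The d95 difference for aPD-1 rested on single libraries. The 8 aPD-1 libraries had 9.54% ± 1.63 and the 3 PLX+PTX libraries 13.3% ± 5.54. DESeq2 on reads per TRBV segment called it, at -0.72 (adjusted p 0.0453). Limma called it without PLX+PTX replicate 1, at -0.70 (adjusted p 0.0179). Over all single omissions it ran from -0.70 to -0.10. The test of the change of this effect between days gave 0.44 ± 0.19 (limma adjusted p 0.130, 1 of 24 segments called, 4.17%). It passed with edgeR at 0.70 (adjusted p 0.0173) and DESeq2 at 0.65 (adjusted p 0.0346), and with limma without that same library at 0.72 (adjusted p 0.0026).

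Between days TRBV1 was lower at d105. In MMTV-PyMT mice it held 7.02% ± 0.498 of normalised counts at d105 (n = 18) and 10.9% ± 3.06 at d95 (n = 14). The log2 difference was -0.64 ± 0.086 (limma adjusted p 1.64e-07), where 20 of 24 segments (83.3%) passed, 10 higher (41.7%) and 10 lower (41.7%). The ranges overlapped, from 6.12% to 8.02% at d105 and from 7.34% to 19.3% at d95. Without d95 PLX+PTX replicate 2, the highest share, and d95 NR replicate 1, the lowest depth, an omission chosen after the values were seen, it was -0.52. In raw reads it was -0.39, with 14.8% ± 0.637 at d105 and 19.2% ± 4.05 at d95. Counted once it was -0.11 (limma adjusted p 2.16e-05), with 15.7% ± 0.428 at d105 and 16.9% ± 0.806 at d95.

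Depth moved with the share within d95. Over its 14 libraries the TRBV1 share and the total reads had a Pearson r of -0.606 (permutation adjusted p 0.0441) and a Spearman rho of -0.807 (permutation adjusted p 0.0022), and r was -0.635 without the 2 libraries farthest from the median depth. Over the 23 d105 libraries r was 0.0928 and rho -0.208 (permutation adjusted p 0.764 and 0.454), and -0.0671 without 2 libraries. With the number of clonotypes in place of reads, r was -0.622 and rho -0.793 at d95 (permutation adjusted p 0.0441 and 0.0022), and r was -0.0667 and rho 0.110 at d105 (permutation adjusted p 0.764 and 0.618). These 4 relations were adjusted together. The d95 groups are too small for a value within each, and the part of depth in the difference between days was not tested.

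**Figure D3:**
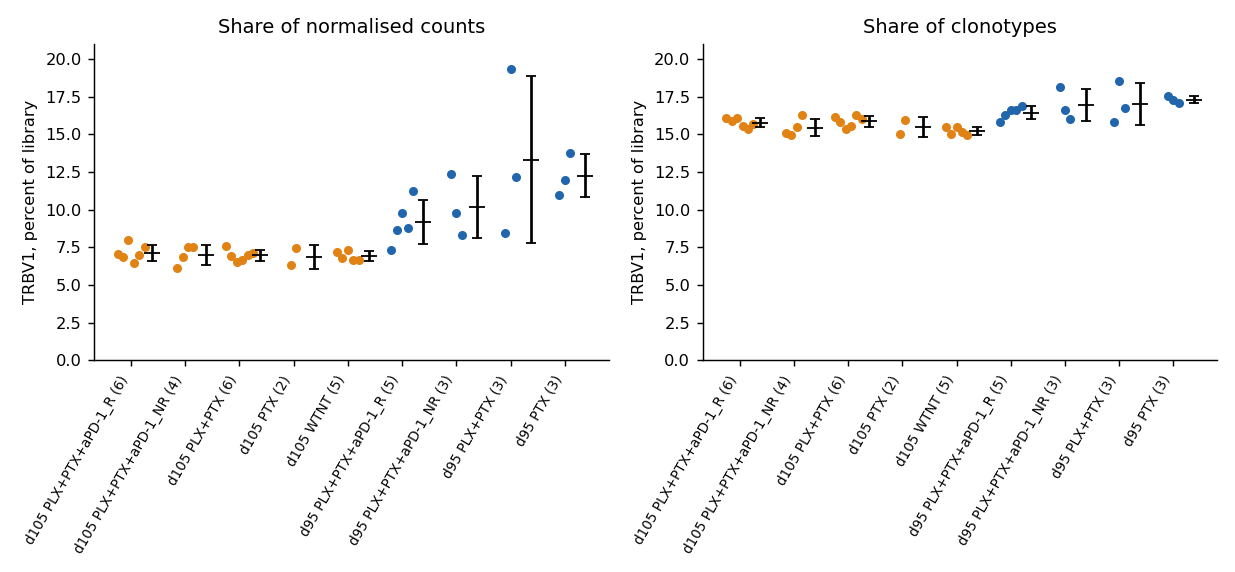
TRBV1 as a percent of normalised counts (left) and of clonotypes (right) in every library, by day and group, with the number of libraries in brackets. Points are libraries (orange d105, blue d95) and black marks are group means with SD; the d105 libraries lie between 6.12% and 8.02% on the left, and the d95 PLX+PTX group holds the highest value of 19.3%.

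The TRBJ partners of TRBV1 also differed between days. Each pair was taken as a percent of the normalised counts of its own TRBV, and 95 of 130 pairs over all segments (73.1%) passed limma between days. For TRBV1, 11 of 11 tested pairs passed, 3 higher (34.6% over all pairs) and 8 lower (38.5%) at d105, with a median log2 difference of -0.30 against 0.0042 over all 130 pairs. TRBJ2-7 held between 27.2% and 34.6% of TRBV1 at d105 with a median of 31.3%, and between 14.0% and 20.1% with a median of 17.1% at d95. These ranges did not overlap, and the log2 difference was 0.91 ± 0.041 (limma adjusted p 6.21e-17). TRBJ1-3 rose by 0.41 ± 0.090 and TRBJ2-2 by 0.34 ± 0.049. TRBJ1-6 fell by 0.88 ± 0.055, to 4.51% ± 0.421 at d105 against 8.20% ± 1.12 at d95, without overlap. TRBJ2-1 fell by 0.61 ± 0.050, to 8.22% ± 0.679 against 12.6% ± 1.29, also without overlap. The other 6, TRBJ1-2, TRBJ1-4, TRBJ2-3, TRBJ1-1, TRBJ2-4 and TRBJ2-5, were lower at d105 by log2 differences of -0.47 to -0.10.

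By normalised counts most TRBJ partners differed between days in opposite directions in TRBV1 and in other TRBV. These were TRBJ2-7, TRBJ2-5, TRBJ2-1, TRBJ2-2, TRBJ2-3, TRBJ2-4 and TRBJ1-3, and TRBJ1-4 with a small difference in other TRBV. TRBJ1-6, TRBJ1-1 and TRBJ1-2 were lower at d105 in both sets, and TRBJ1-5 was higher in both. TRBJ1-6 took 4.51% ± 0.421 of TRBV1 at d105 and 8.20% ± 1.12 at d95, and 2.41% ± 0.178 of other TRBV at d105 and 4.66% ± 0.274 at d95. TRBJ2-7 took 31.4% ± 1.72 of TRBV1 at d105 and 16.8% ± 1.74 at d95, and 29.5% ± 2.21 of other TRBV at d105 and 43.7% ± 1.19 at d95. For TRBJ2-7 the gap between TRBV1 and the rest changed by 28.6 percentage points (permutation of days within treatments, adjusted p 1.2e-05 over 12 TRBJ, at the smallest p the resamples can give). This test was chosen after the values were seen. By normalised counts all 12 TRBJ passed it, TRBJ1-6 included. TRBJ2-5 took 14.0% ± 0.656 and 15.2% ± 1.62 of TRBV1 at d105 and d95, against 20.5% ± 1.46 and 11.01% ± 0.810 of other TRBV. Its opposite directions did not hold under the other weightings, where it was higher at d105 in both sets. In raw reads TRBJ2-5 took 18.2% and 15.9% of TRBV1 at d105 and d95, and 12.6% and 9.85% of other TRBV. Counted once these were 13.7% and 13.4% of TRBV1, and 14.9% and 12.9% of other TRBV. In raw reads TRBJ2-7 took 8.31% of TRBV1 at d105 and 3.58% at d95, and 28.3% of other TRBV at d105 and 33.3% at d95. Counted once it took 19.9% of TRBV1 at d105 and 18.6% at d95, and 22.1% of other TRBV at d105 and 24.1% at d95, a change of the gap of 3.48 percentage points (permutation adjusted p 6e-05).

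The 3 TRBV1 pairs that were higher at d105 were those with factors over 1, and the 8 lower ones had factors under 1. The factors are the same on both days and cancel in a ratio of 1 pair, but they set the total to which each pair is related. In raw reads, which carry no factor, the log2 differences were 1.21 for TRBJ2-7, 0.62 for TRBJ2-2 and 0.60 for TRBJ1-3. Of the 8 lower pairs, TRBJ2-5 was higher at d105 in raw reads (0.21), as was TRBJ2-4 (0.0375, which did not pass). Counted once, TRBJ2-7 was still higher (0.10, limma adjusted p 5.98e-04) and TRBJ1-6 and TRBJ1-1 still lower (-0.18 and -0.19), while TRBJ2-2, TRBJ2-5, TRBJ2-3 and TRBJ1-2 changed sign and did not pass. Of the 11 pairs, 6 passed in raw reads and 4 when counted once. The part of the factors, depth, library preparation and age in these shifts was not tested.

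**Figure D4:**
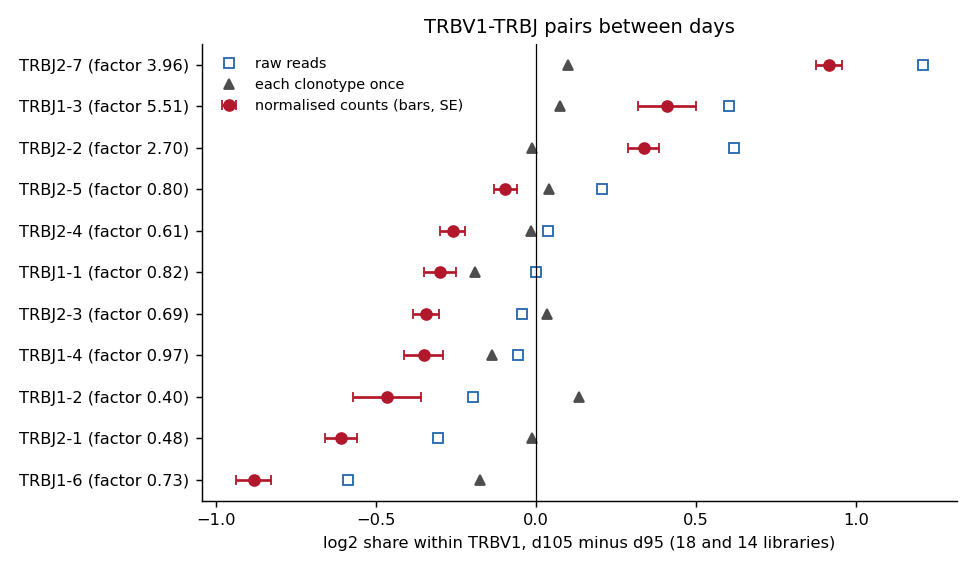
The log2 difference, d105 minus d95, of each TRBJ partner's share within TRBV1, by normalised counts (red, with SE), raw reads (open squares) and with each clonotype counted once (triangles). The authors' factor for the pair stands in brackets; TRBJ2-7 is highest at 0.91 and TRBJ1-6 lowest at -0.88 by normalised counts, and the triangles lie nearer 0.

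In the 7 comparisons within a day, limma called 0 of the 11 TRBV1 pairs in each, with 0 to 3 pairs at an unadjusted p under 0.05. Over all pairs tested it called 1 of 132 for PLX3397 added to PTX at d105 (0.758%) and 0 in the other 6. Of all pairs, 1 to 19 had an unadjusted limma p under 0.05 in these comparisons. Mean CDR3 length, the percent in the 10 most abundant TRBV1 clonotypes and the percent in public clonotypes were compared by permutation tests, exact within a day, and adjusted over 24 tests. In tests of the change of an effect between days, added after the data were seen, 1 TRBV1 pair passed for aPD-1 (0.769% of all pairs) and 1 TRBV1 clonotype for PLX3397 (0.0835% of all clonotypes), while 0 TRBV1 clonotypes passed for aPD-1 (0.0418%). Of the single values, none of the 21 comparisons within a day passed, and the lowest adjusted p was 0.591. PLX3397 added to PTX at d95, with 3 libraries against 3, cannot go below an exact p of 0.1.

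Between days the weighted mean CDR3 length of TRBV1 was 13.94 ± 0.0262 at d105 (n = 18) and 14.08 ± 0.0377 at d95 (n = 14), without overlap (permutation adjusted p 2.4e-04). Counted once it was longer at d105 by 0.0739 residues (permutation adjusted p 1.6e-04). The direction thus turned with the weighting. TRBJ2-7, the partner whose weight changed most, has the shortest TRBV1 CDR3s, at 13.56 residues on average, and TRBJ2-2 the longest of the regular partners, at 14.88. Both of these partners were higher at d105 by normalised counts. The part of TRBJ makeup in the length difference between days was not tested.

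TRBV1 receptors were shared between libraries more than others were. Of the TRBV1 clonotypes 78.4% were found in 1 library, and 666 (0.471%) in at least 19 of the 37 libraries, called public here. Of other TRBV clonotypes 80.5% were found in 1 library and 1888 (0.219%) were public. Public clonotypes held 16.8% ± 0.847 of TRBV1 normalised counts and 8.54% ± 1.18 of others, higher in 37 of 37 libraries (sign-flip permutation test, adjusted p 1.25e-05). The difference was 9.18 percentage points over the 23 d105 libraries and 6.63 over the 14 of d95. Within TRBV1 the public percent was 16.9% ± 0.768 at d105 and 16.5% ± 1.04 at d95 (permutation adjusted p 0.645). Its direction changed with the weighting. Counted once it was lower at d105, by -2.28 percentage points (permutation adjusted p 1.6e-04). Among clonotypes of at least 5 reads counted once it was -1.49 (permutation adjusted p 8.0e-05). In raw reads and after thinning it was also lower at d105 but did not pass. The part of depth in these differences was not tested.

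Nucleotide forms are the distinct sequences that encode 1 amino acid clonotype. TRBV1 had 1.11 ± 0.0351 forms per clonotype in a library and other TRBV 1.07 ± 0.0211, higher in 36 of 37 (sign-flip permutation test, adjusted p 1.25e-05). Clonotypes found in more libraries had more forms, from 1.02 for those of 1 library to 8.25 for those of 10 to 18 and 19.7 for those of 29 to 37 libraries. Mean length went the other way, at 14.5, 13.8 and 13.2 residues. More libraries give more chances to find a form, so these 2 counts are not independent. TRBJ2-7 was the partner of 25.5% of the public TRBV1 clonotypes and of 16.9% of all, and TRBJ1-2 of 0.300% and 1.94%.

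**Figure D5:**
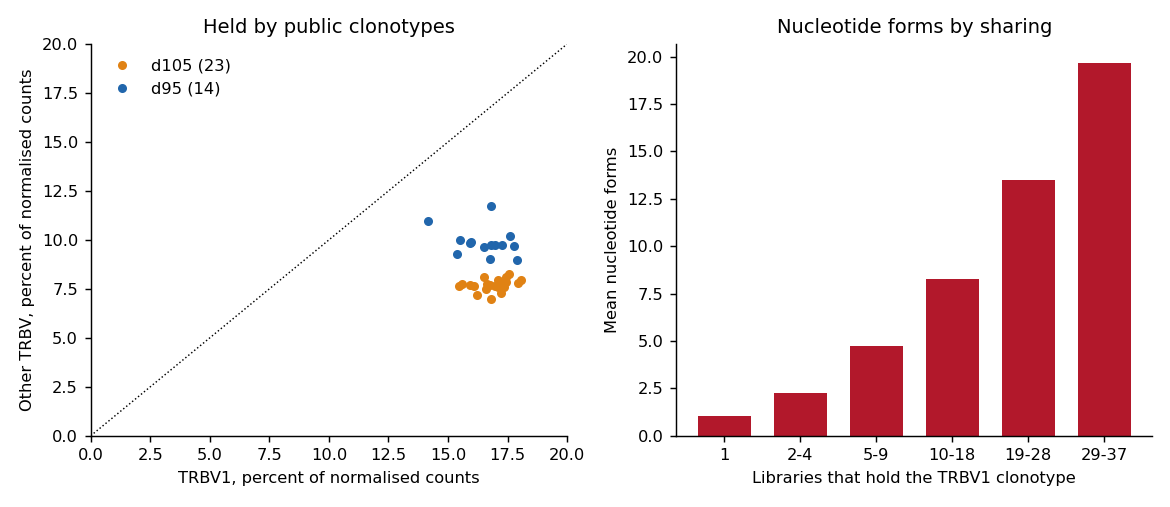
Left, the percent of normalised counts held by public clonotypes, for TRBV1 (x axis) and other TRBV (y axis) in each library (orange d105, blue d95), with a dotted line at equality, and right, the mean number of nucleotide forms of TRBV1 clonotypes by the number of libraries that hold them. All 37 points lie on the TRBV1 side of the line, and the forms run from 1.02 to 19.7.

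No TRBV1 clonotype was found in all 37 libraries and 10 were found in 36. Of the 10, 6 were missed in d95 NR replicate 1, 2 in d95 PTX replicate 1 and 2 in d95 R replicate 3, and every d105 library held all of them. The TRBJ2-7 receptor of 14 residues, the first one printed above, averaged 204 CPM (its normalised count scaled to a library total of 1000000) ± 91.7 over the 37 libraries, with 206 ± 68.1 at d105 and 201 ± 124 at d95. It was encoded by 57 forms, of which 8 were in at least 20 libraries, 25 in 1 library and 14 rested on 1 read. TRBJ2-7 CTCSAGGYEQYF averaged 128 CPM ± 81.1 with 39 forms, and TRBJ1-1 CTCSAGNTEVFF 90.5 CPM ± 68.8 with 14. TRBJ2-7 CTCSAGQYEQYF, TRBJ2-5 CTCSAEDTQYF, TRBJ2-7 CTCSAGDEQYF, TRBJ2-7 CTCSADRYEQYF and TRBJ2-3 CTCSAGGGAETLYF averaged between 64.6 and 86.1 CPM, and the 2 TRBJ2-1 receptors of 15 residues 53.0 and 42.8. The printed form of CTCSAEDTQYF, found in 33 libraries, is the untrimmed TRBV1 end joined to TRBJ2-5 with no base between them.

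Shared TRBV1 clonotypes were tested with limma on log2 of CPM plus 10 where they were present in 50% or more of the fitted libraries. In the 7 comparisons within a day 0 of 1191 at d105 and 0 of 272 at d95 passed. At an unadjusted limma p under 0.05 there were 48 to 111 at d105 and 12 to 20 at d95. Over all segments 0 of 5242 passed in each d105 comparison, with 259 to 520 under that unadjusted p. At d95 2 of 964 passed for R minus NR (0.207%), 1 for PLX3397 (0.104%) and 0 for aPD-1, with 59 to 79 under it. Between days 12 of 625 passed (1.92%), 9 higher and 3 lower at d105, against 125 of 2394 over all segments (5.22%), of which 4.8% were higher and 0.418% lower. The 18 d105 libraries can meet the 50% filter alone and the 14 d95 libraries cannot. The tested set thus leans to clonotypes found at d105, and the counts of higher and lower calls are a description. With presence in 80% or more of the libraries required, 2 TRBV1 clonotypes passed. The median log2 difference was 0.06 over the TRBV1 clonotypes and 0.19 over all.

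Of the 9 that were higher at d105, 8 had TRBJ2-7, 1 of the 3 partners whose share rose. TRBJ2-7 was the partner of 26.7% of the 625 TRBV1 clonotypes tested. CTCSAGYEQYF had between 68.6 and 192 CPM at d105 and between 0 and 209 at d95, with medians of 136 and 52.1, and its log2 difference was 1.23 ± 0.36 (limma adjusted p 0.0387). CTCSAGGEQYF averaged 62.1 CPM ± 27.4 at d105 and 33.0 ± 32.3 at d95, with a log2 difference of 1.26. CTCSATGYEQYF was found in 15 of 18 libraries at d105 and 3 of 14 at d95, with a log2 difference of 1.36. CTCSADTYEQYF, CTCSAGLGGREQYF, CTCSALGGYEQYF, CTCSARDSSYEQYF, a TRBJ2-7 receptor of 15 residues and TRBJ2-5 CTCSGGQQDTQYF had log2 differences between 1.13 and 1.43. For all 12 called receptors the ranges at the 2 days overlapped.

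The 3 that were lower at d105 had other partners. TRBJ1-1 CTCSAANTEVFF averaged 32.4 CPM ± 16.7 at d105 and 101 ± 84.7 at d95 (log2 difference -1.40 ± 0.35, limma adjusted p 0.0139). TRBJ1-2 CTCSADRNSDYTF averaged 4.53 CPM ± 5.35 and 40.7 ± 40.4 (-1.48 ± 0.37), and TRBJ2-5 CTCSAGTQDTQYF 7.38 CPM ± 9.78 and 43.7 ± 59.2 (-1.11 ± 0.33). The count of calls was 8 to 19 when 1 library was left out, with 19 without d95 PTX replicate 2. Leaving out 1 of the 32 libraries ended the call of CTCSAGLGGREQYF, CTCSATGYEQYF and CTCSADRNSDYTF in none of them, that of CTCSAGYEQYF in 9, that of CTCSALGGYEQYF in 14, that of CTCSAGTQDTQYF in 15 and that of the 15-residue TRBJ2-7 receptor in 20.

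Sizes were taken per amino acid clonotype, with the reads of all its nucleotide forms added, so they are not sizes of single clones. The largest TRBV1 clonotype took between 0.0272% and 0.0867% of the reads of a d105 library, with a median of 0.0386%. At d95 it took between 0.0670% and 0.266%, with a median of 0.0826%. It exceeded the largest other clonotype in some d95 libraries, such as R replicate 5 (0.266% against 0.0573%). In others it was smaller, such as NR replicate 3 (0.0740% against 0.173%). At d105 0 TRBV1 clonotypes and 29 others reached 0.1% of the reads of a library. At d95 65 TRBV1 and 138 other clonotypes did, 61 and 130 of them in NR replicate 1, the library with 90648 reads. Among the 100 largest clonotypes of a library, 12 to 26 were TRBV1 at d105 and 15 to 55 at d95, with 55 in PLX+PTX replicate 2.

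The leader of a group is the TRBV1 clonotype with the most reads in any 1 library, a choice that favours deeper libraries. By percent of a library's reads another clonotype was larger in some groups, such as in d105 NR replicate 4 (0.0867%) and d95 NR replicate 1 (0.207%). In others, such as d95 R, the leader was largest by percent too. The leaders by reads were of 2 kinds. In d95 R replicate 5 the printed TRBJ1-1 receptor of 15 residues had 1346 reads in 1 nucleotide form, 0.266% of the library (95% Wilson interval 0.252 to 0.280), and was found in 9 libraries. In d105 PLX+PTX replicate 1 TRBJ2-4 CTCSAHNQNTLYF had 1947 reads (0.0688%, 0.0658 to 0.0719) in 2 forms and was found in no other library. The d105 NR leader, a TRBJ2-4 receptor of 15 residues, had 1286 reads (0.0775%) and was found in 3 libraries, and the d105 R leader, TRBJ2-5 with 15 residues, had 1304 reads (0.0532%) and was found in 6. The d95 NR leader, TRBJ1-2 with 13 residues, had 445 reads (0.107%) and was found in 4. The other 4 were widely shared. TRBJ2-5 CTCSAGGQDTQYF led in PTX libraries at d105 with 616 reads in 8 nucleotide forms. TRBJ2-5 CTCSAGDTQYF led in WTNT libraries with 560 reads in 5 forms, and both were found in 35 libraries. A TRBJ2-1 receptor of 14 residues led in PLX+PTX at d95 with 738 reads (0.213%) in 3 forms. TRBJ2-4 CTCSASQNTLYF led in PTX at d95 with 355 reads, also in 3 forms. They were found in 34 and 32 libraries.

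The segments whose share moved most like that of TRBV1 over the 37 libraries were TRBV24 (Spearman rho 0.889), TRBV19 (0.811) and TRBV2 (0.396). Within days these were 0.569, 0.4931 and 0.164 over the 23 d105 libraries and 0.965, 0.455 and -0.763 over the 14 of d95. Shares of 1 library add up to a whole, so these values are a description. By normalised counts the mean TRBJ partners of TRBV1 were most like those of TRBV26, TRBV3 and TRBV19. Their Pearson r was 0.958, 0.957 and 0.954 over 13 TRBJ. The other segments compared were close behind or lower, from 0.945 for TRBV2 to 0.815 for TRBV30. When clonotypes were counted once the order changed. TRBV26 was then the lowest of the segments compared, at 0.757, and TRBV3 had 0.926. TRBV19 was the highest, at 0.977, followed by TRBV29 at 0.972. Which segments were most like TRBV1 thus depended on the weighting.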

How the data were processed

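Genomic DNA of the TRB locus was amplified and sequenced in 37 libraries. Per the file headers, the deposited tables give a read count and a normalised clone count per clonotype. The authors' normalised clone count is treated as a score: it equals the count times 1 factor per V-J pair, and 5.04% of the values are 0 after rounding. No label or header names the aligner or the clonotype caller, and for both the answer is: not given in the sources used here. The build is likewise not named.

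Rows with TRBV1 as best V gene were taken, and shares, TRBJ partners, CDR3 features and sharing between libraries were computed with Python 3.11.15, pandas 2.3.3, numpy 2.4.6 and scipy 1.17.1. Libraries were grouped by their labels. Shares (log2 percent + 0.01, mean at least 0.1%), V-J pairs (log2 percent + 0.1, at least 0.5%) and shared clonotypes (log2 CPM + 10, found in at least 50% of libraries) were fitted in R 4.3.3 with limma 3.58.1, with Benjamini-Hochberg adjustment over all features at 0.05. edgeR 4.0.16 and DESeq2 1.42.0 on reads per TRBV segment were alternatives. Single values were tested by exact or 100000-resample permutation. The scripts were tested on simulated data. Alternatives were raw reads, clonotypes counted once, other pseudocounts and filters, thinning to 40000 TRBV1 reads, number blocks from the library numbers, and leaving out each library. Figures were drawn with matplotlib 3.10.9.

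The text names every TRBV1 pair and clonotype called between days, the 10 most widely found clonotypes and the leader of each group. By normalised counts it also names the 3 segments most like TRBV1 in share and in TRBJ partners. The members and lists were chosen with earlier results of these data known.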

Additional observations from a re-analysis of the deposited data

Results flagged for a closer look

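The difference in the share of TRBJ1-4 within TRBV1 between aPD-1 added to PLX+PTX and PLX+PTX was compared between the 2 days. At d105 it was 3.27% ± 0.209 with aPD-1 (n = 10) and 3.21% ± 0.230 with PLX+PTX (n = 6). At d95 it was 5.07% ± 1.04 with aPD-1 (n = 8, from 3.86% to 7.29%) and 3.16% ± 0.370 with PLX+PTX (n = 3, from 2.74% to 3.44%), without overlap. The d105 effect minus the d95 effect was -0.63 on the log2 scale (SE 0.14, limma adjusted p 0.0149; 0.769% of all pairs passed). In raw reads it was -0.68 (limma adjusted p 0.00823), and counted once it did not pass (limma adjusted p 0.521). Leaving out 1 library in turn gave limma adjusted p from 0.00237 to 0.200, and 1 of 32 such fits did not pass, the one without d95 PLX+PTX replicate 2.

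TRBV1 TRBJ2-3 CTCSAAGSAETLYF differed in the addition of PLX3397 to PTX between days, by 5.25 on the log2 scale (SE 1.05, limma adjusted p 0.0261; 0.0835% of all clonotypes passed). At d105 it was found in 5 of 6 PLX+PTX and 0 of 2 PTX libraries, and at d95 in 0 of 3 PLX+PTX and 3 of 3 PTX libraries. The fitted value depends on the added 10 CPM and is no bound. It did not pass in raw reads (limma adjusted p 0.0655) or with 1 CPM added (10.75, limma adjusted p 0.153). Of the 16 fits without 1 library that still tested it, 3 did not pass, those without d105 PTX replicate 1, d105 PTX replicate 2 or d95 PLX+PTX replicate 3 (limma adjusted p 0.0123 to 0.186 over the 16). Both tests were chosen after the data were seen.

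Single libraries lay far from the others of their group in 3 of 25 sets examined, where chance gives about 1 in 20. The 10 most abundant TRBV1 clonotypes held 3.29% of TRBV1 normalised counts in d105 R replicate 5, with 1.75% to 2.09% in the other R libraries. They held 2.89% in d105 PLX+PTX replicate 1, with 1.68% to 1.91% in the others. TRBJ2 partners took 81.1% of TRBV1 in d105 PLX+PTX replicate 4, with 78.8% to 79.6% in the others.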

How the results depend on the processing

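No paired analysis was possible because the labels carry no replicate numbers that groups share. Day cannot be told apart from depth, number block, age or time under treatment. Reads are not molecules, and the d95 groups hold 3 to 5 libraries. The lower TRBV1 share at d105 and the calls of the 11 pairs kept their direction and call when any 1 library was left out. The causes of the changes below were not tested, and most are of differences that passed no test.

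In raw reads the length difference for d105 PLX3397 was 0.00133, the percent in the 10 most abundant was -0.189 for d105 R minus NR, -0.436 for d105 PLX3397 and -1.20 between days (now passing), the public percent was -0.533 for d105 PLX3397 and -0.239 between days, the TRBJ2 difference from other TRBV was 0.0274 and the share for d105 aPD-1 was -0.00662. Counted once, length was 0.0056 for d105 R minus NR, 0.0316 for d105 PLX3397 and 0.0739 between days (passing in the reversed direction). The public percent was 0.285 for d105 aPD-1, -1.06 for d105 PLX3397 and -2.28 between days (now passing). The hydrophobic difference was 0.0793 (no longer passing), and the share was -0.0200 for d105 aPD-1, -0.0252 for d95 PLX3397 and 0.0587 for its change between days. With at least 5 reads, the public values were 0.128, -1.30 and -1.49 (the last now passing). The share values were -0.0337, -0.00594 and 0.0809, in the same orders. Thinned, the 10 most abundant gave 0.00537 for d95 R minus NR and 0.0185 for d95 PLX3397, and the public percent -0.0849 for d95 R minus NR and -0.213 between days. Thinning dropped d95 NR replicate 1, which had 18796 TRBV1 reads, and kept 36 libraries. Public clonotypes were defined anew over the thinned libraries, so these values do not show thinning alone. With number blocks the share for d105 PLX3397 was -6.6e-05. DESeq2 gave -0.00647 for MMTV-PyMT minus WTNT, -0.72 for d95 aPD-1 and 0.65 for its change between days, where edgeR gave 0.70. Without the 2 d95 libraries the change for PLX3397 was 0.29.

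TRBV1 pairs called between days numbered 6 in raw reads and 4 counted once. TRBJ2-5 was 0.21 and TRBJ2-4 0.0375 in raw reads, and TRBJ2-2 was -0.0131, TRBJ2-5 0.0415, TRBJ2-3 0.0331 and TRBJ1-2 0.13 counted once. Clonotypes called between days numbered 35 in raw reads, 35 with 1 CPM added and 2 of those found in 80% of libraries. There was 1 for d105 aPD-1 in raw reads and 1 for d105 PLX3397 at 80%. The shares over all pairs and clonotypes under these settings are not given here, so these counts have no background beside them.

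Leaving out 1 library gave 0 to 1 clonotypes for d105 PLX3397 and 8 to 19 between days. Length ran from -0.0122 to 0.000179 for d105 aPD-1 and -0.0567 to 0.00639 for d95 R minus NR. The 10 most abundant ran from -0.0622 to 0.332 for d105 PLX3397, -0.0735 to 0.239 for d105 aPD-1, -0.83 to -0.276 between days, -0.172 to 0.118 for d95 PLX3397 and -2.18 to 0.0331 for d95 R minus NR. The public percent ran from -0.491 to 1.14 for d105 PLX3397. The share ran from -0.10 to 0.14 for d105 PLX3397, -0.0311 to 0.0670 for d105 R minus NR, -0.27 to 0.33 for d95 PLX3397, -0.28 to 0.00836 for d95 R minus NR and -0.70 to -0.10 for d95 aPD-1, and its change between days from -0.31 to 0.29 for PLX3397 and 0.13 to 0.72 for aPD-1.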
